A study of Mus musculus with 4 samples.

Results

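The 38 genes described here encode the machinery that copies DNA in S phase, and they were followed in mouse haematopoietic stem cells (HSC) of 2 genotypes. The members were taken by name from a fixed list and not by their values, and make up 38 of the 24411 gene symbols counted. All 38 were detected in each of the 4 libraries. They were ordered by role into 10 genes of origin licensing and helicase loading, 3 of nucleotide supply, 9 of the replication fork, 7 of chromatin copying, 6 of repair and 3 of S phase control.

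Before S phase, the Mcm2-7 ring is loaded onto replication origins, and at the start of S phase Cdc45 and the GINS complex join it to form the active helicase. Primase and polymerase alpha then lay down primers, the sliding clamp Pcna tethers the polymerases, and histone chaperones and maintenance factors restore chromatin behind the fork. Many of these genes are transcribed together late in G1 by E2F transcription factors. Most HSC in adult marrow rest outside the cell cycle, so these transcripts mark the minority of cells that are preparing for or passing through division.

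The cells were HSC sorted from mouse bone marrow by flow cytometry, and each was picked by hand into its own well. The labels give the genotypes as Mat KO, in 2 libraries, and wild type (WT), in 2 libraries, and the series concerns small nucleolar RNAs of the imprinted Dlk1-Gtl2 locus. The labels do not give the allele behind "Mat KO" beyond that name, nor age, sex, strain or the gates of the sort, and no treatment separates the groups. Nor do they say whether replicate libraries come from different animals, so each p-value reflects library-to-library spread that could be technical. The assay, a modified STRT-seq, primes polyadenylated RNA with oligo-dT carrying a barcode for the cell and a random tag for the molecule, the unique molecular identifier (UMI), and reads its 3' region.

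Cells with at least 1000 detected genes were kept, 44 and 48 Mat KO cells and 48 and 48 WT cells, 188 in all. Their UMIs summed to 1900319 and 1768647 in the Mat KO pair and 3183279 and 3253608 in the WT pair, with medians per cell of 33612.5 and 27845 against 53092.5 and 51437. Depth therefore moved with genotype, and each count of members per cell was made after drawing 8800 UMIs from every cell, which left out 5, 7, 2 and 4 shallower cells in the order Mat KO 1, Mat KO 2, WT 1, WT 2. That order holds for each run of 4 values below. Barcodes are numbered 1 to 96 in every library, and 44 numbers held a kept cell in all 4. The 48 barcodes without cells held 721, 769, 1293 and 1164 UMIs in all, of which 2, 3, 1 and 3 were member UMIs. All of 35 long-term HSC genes such as Procr, Hlf and Mecom were detected in every library, but detection needs only 1 UMI. They took 0.527% and 0.638% of the Mat KO UMIs and 0.683% and 0.573% of the WT UMIs. Some cells carried markers of other blood lineages. The 23 granulocyte and monocyte markers took 3.72% and 0.644% of the Mat KO UMIs and 0.744% and 0.380% of the WT UMIs, and the 14 B-lymphoid markers 0.160% and 0.142% against 0.138% and 0.0670%. No marker of either list was at 0 in all 4 libraries. Cells of a marked lineage had at least 3 markers of its list and 1% of UMIs in granulocyte and monocyte markers, or 0.2% in another list. The other cells, 27, 42, 41 and 41 of them, are called unmarked cells below. These limits were set after the values were seen.

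The promoters of the members shared a sequence feature that the choice by name did not use. Windows from 250 bases before to 50 after a transcription start were taken from RefSeq (GRCm38.p6), and 29 of the 38 members had one. They were searched on both strands for the E2F letters, here TTCCCGC or TTCGCGC or TTGCCGC or TTGGCGC, which can overlap each other. At least 1 match lay in the windows of 21 of the 29 members (72.4%), against 10.9% of the 27025 genes with a window and 19.995% of the 8222 genes that were also tested for expression. Of 65 other replication genes 53.8% had a match, and of 49 genes of G2 and mitosis 22.4%. The CCAAT letters were present in 72.4% of the members and 41.1% of all genes. The letters TTTGAA, the core of the cell cycle element CHR, were present in 20.7% of members and 20.2% of all genes, but in 69.4% of the G2 and mitosis genes. A match is a run of letters and no measure of binding.

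The promoters of 4 helicase and polymerase genes are printed to show how the E2F letters are placed, 3 with several matches and 1 with none. Each runs 5' to 3' on the gene's strand over the 250 bases before the RefSeq start, with E2F matches on either strand in capitals. They lie at chr1:128359706-128359955 (minus strand) for Mcm6, chr8:75109259-75109508 (plus strand) for Mcm5, chrX:93632156-93632405 (minus strand) for Pola1 and chr6:88898781-88899030 (minus strand) for Mcm2.
Mcm6: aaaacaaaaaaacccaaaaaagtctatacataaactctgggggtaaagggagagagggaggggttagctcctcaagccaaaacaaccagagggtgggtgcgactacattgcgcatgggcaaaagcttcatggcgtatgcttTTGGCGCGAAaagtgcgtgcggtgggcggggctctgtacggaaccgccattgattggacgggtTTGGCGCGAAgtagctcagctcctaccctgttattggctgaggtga
Mcm5: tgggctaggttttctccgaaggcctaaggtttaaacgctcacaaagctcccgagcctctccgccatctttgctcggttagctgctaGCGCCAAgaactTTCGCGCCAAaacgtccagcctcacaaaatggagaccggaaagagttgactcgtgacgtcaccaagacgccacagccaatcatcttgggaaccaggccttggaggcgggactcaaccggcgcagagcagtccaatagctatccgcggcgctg
Pola1: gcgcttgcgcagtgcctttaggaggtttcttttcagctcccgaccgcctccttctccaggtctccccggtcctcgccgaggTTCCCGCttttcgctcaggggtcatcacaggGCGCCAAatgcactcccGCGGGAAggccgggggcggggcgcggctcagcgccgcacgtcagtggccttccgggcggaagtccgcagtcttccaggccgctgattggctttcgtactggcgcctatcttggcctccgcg
Mcm2: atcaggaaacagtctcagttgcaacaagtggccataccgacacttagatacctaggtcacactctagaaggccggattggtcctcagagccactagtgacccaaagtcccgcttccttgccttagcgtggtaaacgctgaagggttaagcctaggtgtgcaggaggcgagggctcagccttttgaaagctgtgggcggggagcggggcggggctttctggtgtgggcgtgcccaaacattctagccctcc
In Mcm6 the matches come in pairs that overlap on opposite strands, starting 109 and 106 bases and again 46 and 43 bases before the start. In Mcm5 they start 164, 152 and 149 bases before it, and in Pola1 169, 138 and 121 bases before it. No match lies in the Mcm2 window, although Mcm2 had the smallest p among the members. The median log2 fold change was -0.63 over the 21 members with a match and -0.60 over the 8 without, so the presence of the letters did not separate the members by their difference between genotypes.

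Cells ranged from none of the members to most of them. At 8800 UMIs per cell, the number of members detected ran from 0 to 27 in Mat KO 1, 0 to 22 in Mat KO 2, 2 to 28 in WT 1 and 1 to 28 in WT 2, with medians of 7, 5, 7 and 10. A cell was said to carry the programme with at least 10 of the 38 members. This is a range of a count and not a cell type, and 6 cells stood at 9 members and 5 at 10. The distributions of members per cell show a long tail above 10 in each library, and most cells of WT 2 in it.

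**Figure D1:**
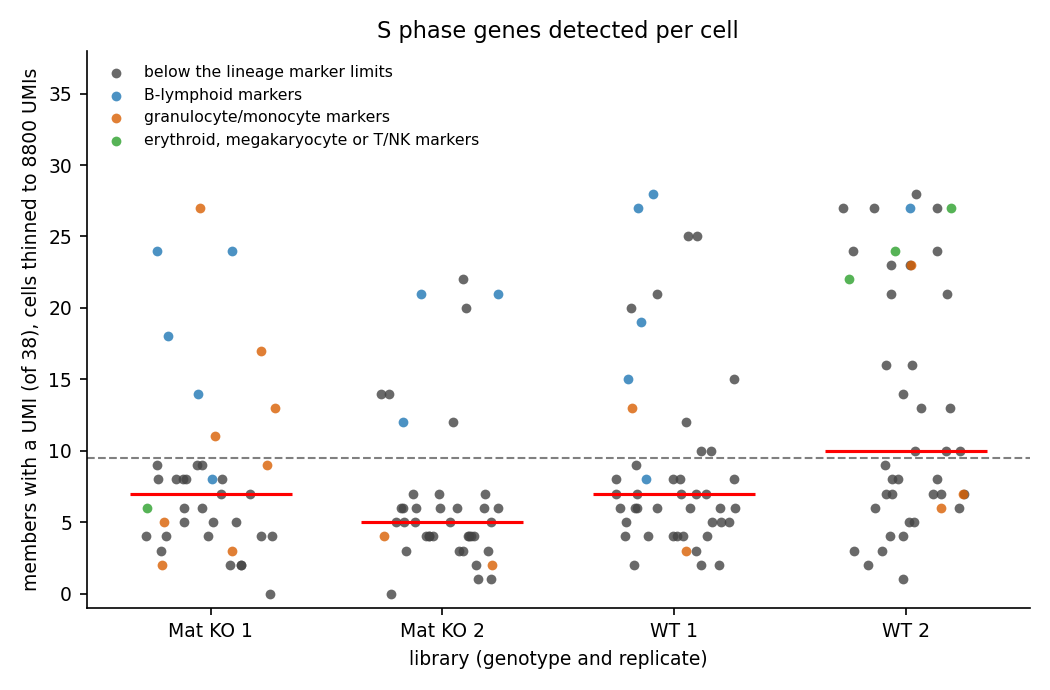
Number of the 38 members detected in each cell (y axis) at 8800 UMIs, by library (x axis). Each point is a cell, coloured by its lineage markers, the dashed line separates 9 from 10 members, and the red bars are the library medians of 7, 5, 7 and 10 members.

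Fewer cells carried the programme in both Mat KO libraries than in either WT library. In Mat KO 1 there were 8 of 39 cells (20.5%, exact binomial 95% interval 9.30 to 36.5%) and in Mat KO 2 there were 8 of 41 (19.5%, 8.82 to 34.9%). In WT 1 there were 13 of 46 (28.3%, 16.0 to 43.5%) and in WT 2 there were 23 of 44 (52.3%, 36.7 to 67.5%). Both Mat KO shares lay below both WT shares, but the interval of WT 1 covers the values of both Mat KO libraries. WT 2 stood apart. The mean difference was -20.3 percentage points with it and -8.25 without it. Without thinning, where WT cells are deeper, the shares were 45.5%, 39.6%, 72.9% and 85.4%. With thinning and at least 7 members they were 51.3%, 26.8%, 52.2% and 75%, and Mat KO 1 lay close to WT 1. Intervals cover counting error only.

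The cells that carried the programme in Mat KO 1 were not unmarked cells. All 8 belonged to a marked lineage, 4 to the B-lymphoid and 4 to the granulocyte and monocyte class. Among unmarked cells, 0 of 25 carried the programme in Mat KO 1, with an exact upper bound of 13.7% and a limit of 12% by 3 counts, and 5 of 36 did in Mat KO 2 (13.9%, 4.67 to 29.5%). In WT the counts were 8 of 39 (20.5%, 9.30 to 36.5%) and 18 of 37 (48.6%, 31.9 to 65.6%). Again the genotypes did not overlap, and the intervals of Mat KO 2 and WT 1 did. B-lymphoid cells carried the programme in most cases, with 4 of 5, 3 of 3, 4 of 5 and 1 of 1 cells. Mat KO 1 also had the most cells near the granulocyte and monocyte limit, with 15 cells between 0.5% and 2% of UMIs against 2, 4 and 3 elsewhere. With the limit at 0.5% or at 2%, Mat KO 1 had 0 of 17 or 1 of 27 carrying cells among the unmarked.

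**Figure D2:**
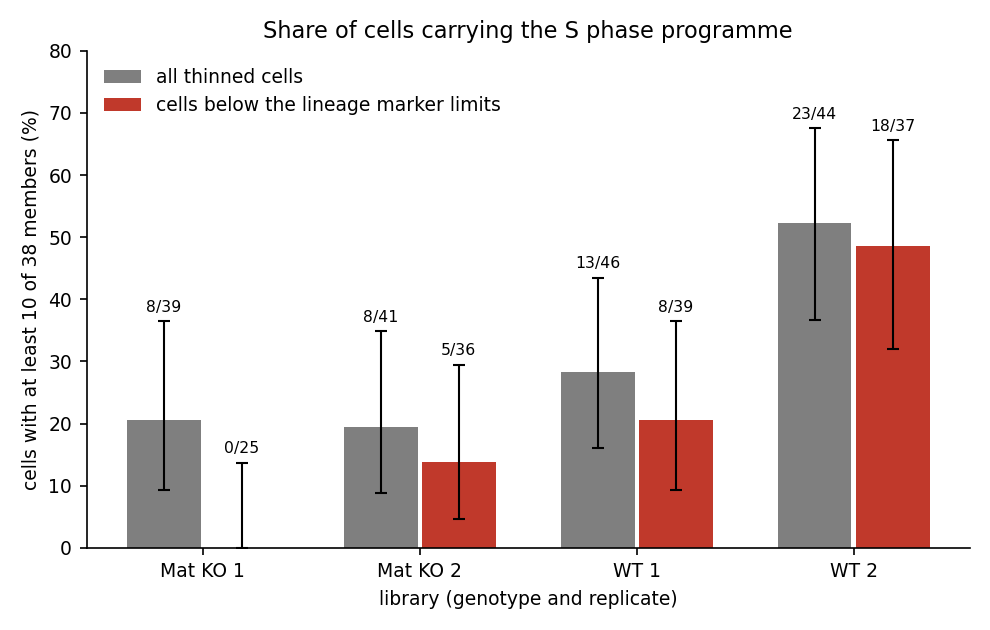
Percent of cells with at least 10 members at 8800 UMIs (y axis) by library (x axis), for all cells and for cells below the lineage marker limits, with exact binomial 95% intervals. The shares run from 19.5% to 52.3% over all cells, and WT 2 is highest on both sets.

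Carrying cells differed from the others in more than the members. Pooled over the carrying cells of a library, members took 0.505%, 0.496%, 0.643% and 0.609% of UMIs, against 0.124%, 0.0960%, 0.128% and 0.113% in the cells that did not carry the programme. The carrying cells held 34.8%, 26.3%, 33.3% and 64.2% of the library's UMIs and 68.6%, 64.5%, 71.4% and 90.5% of its member UMIs. Their median share of UMIs in long-term HSC genes was 0.142%, 0.398%, 0.448% and 0.435%, where the other cells had 0.771%, 0.753%, 0.780% and 0.893%. Among unmarked cells the pattern was alike, at 0.503%, 0.669% and 0.463% in the carrying cells of Mat KO 2, WT 1 and WT 2 against 0.756%, 0.818% and 0.903% in the rest. The depth of carrying cells was greater too, with median UMIs of 78436.5, 39013, 89091 and 73139 against 35326, 29576, 49793 and 42659 before thinning.

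Replication genes and genes of G2 and mitosis overlapped in part. Of cells with at least 1% of UMIs in 54 genes of G2 and mitosis, a limit also set after the values were seen, 7 of 10, 4 of 4, 6 of 7 and 8 of 9 carried the programme. Of the cells under 1%, 1 of 29, 4 of 37, 7 of 39 and 15 of 35 did. Those last cells showed replication genes with few mitotic transcripts. Among unmarked cells under 1% the counts were 0 of 22, 4 of 35, 7 of 37 and 14 of 32. The plot of member share against the share of G2 and mitosis genes shows them along its lower edge, and most belong to WT 2.

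**Figure D3:**
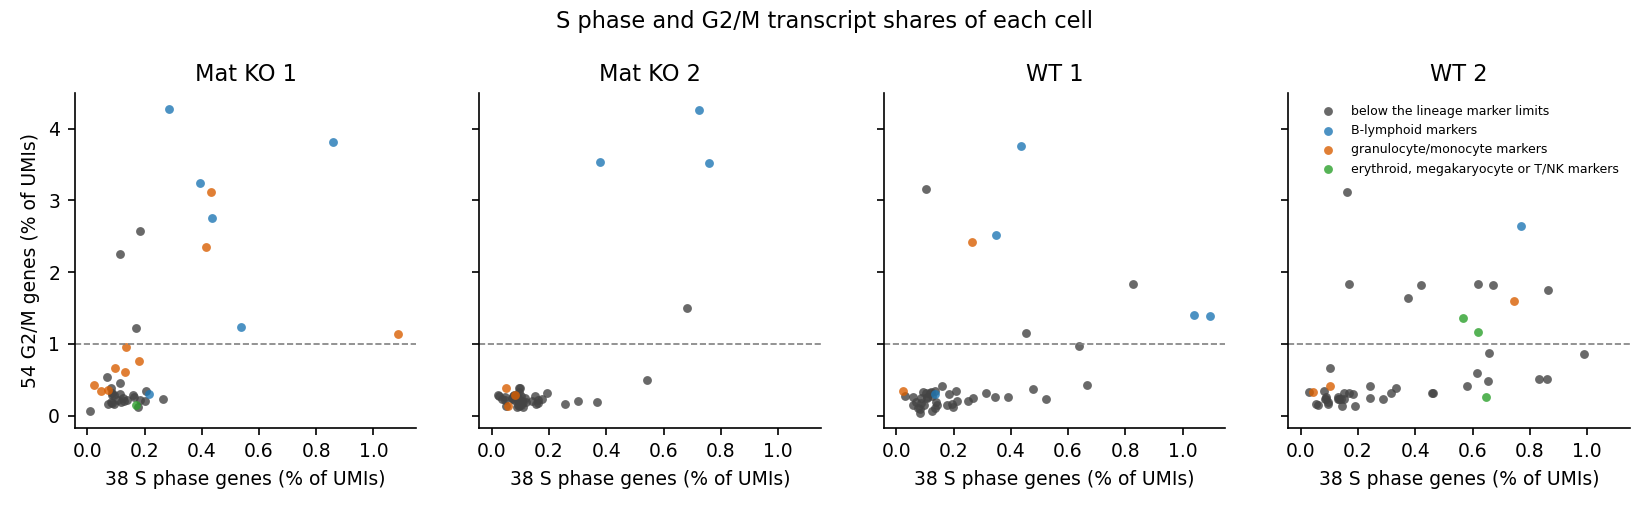
Percent of each cell's UMIs in 54 genes of G2 and mitosis (y axis) against percent in the 38 members (x axis), 1 panel per library, with points coloured by lineage markers and a dashed line at 1%. Below the line, carrying cells number 1, 4, 7 and 15 from Mat KO 1 to WT 2.

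The members differed in how far they followed the others. For each member, cells were split by whether they had 10 or more of the other 37, and this split is used as a description. Several chromatin and licensing regulators were rarely detected outside cells rich in other members. Uhrf1, which reads hemimethylated DNA behind the fork, was detected in 63.5% of rich cells and 5.08% of the rest. Gmnn, the inhibitor of relicensing, was detected in 57.7% and 5.08%, and Clspn, the checkpoint adaptor at the fork, in 56.9% and 5.88%. Cdc6, which loads the helicase, was seen in 23.5% and 0.840%, and the cohesion factor gene Dscc1 in 15.4% and in 0 of 118 cells. Other members were detected in more of the remaining cells. Pcna was detected in 75.5% of rich cells and 49.6% of the rest, Cdca7 in 79.6% and 36.4%, and Usp1, the deubiquitinase that acts on Pcna, in 82.0% and 25.8%.

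**Figure D4:**
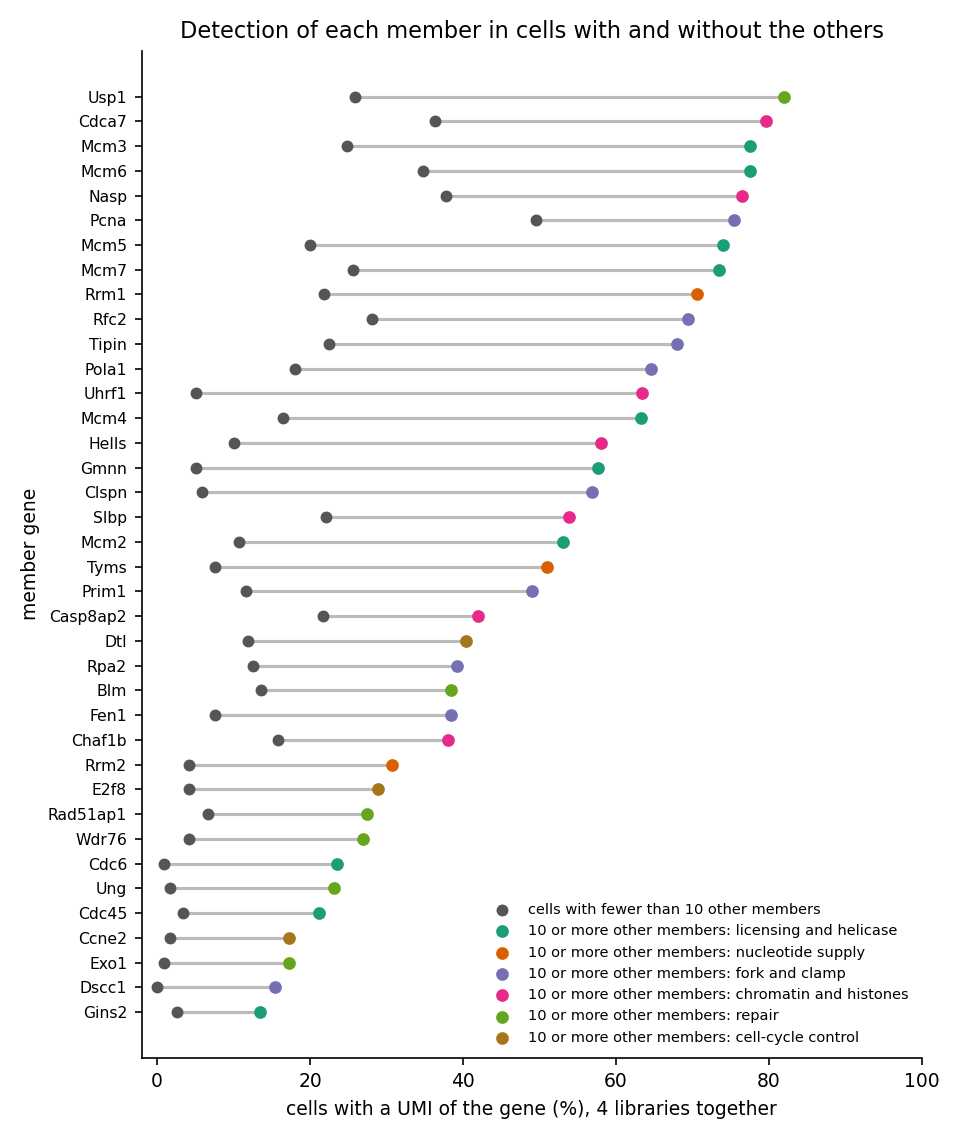
Percent of cells with a UMI of each member at 8800 UMIs (x axis), in cells with 10 or more of the other members (coloured by role) and in cells with fewer (grey). Every member was detected more often in the first set, from Pcna (75.5% against 49.6%) to Dscc1 (15.4% against 0). The same count over all genes was not made.

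Summed over the kept cells of a library, the 38 members took 0.257% and 0.202% of Mat KO UMIs and 0.300% and 0.432% of WT UMIs. The 2 genotypes did not overlap. A sum over cells cannot tell fewer carrying cells from less RNA per carrying cell, which is why both are given here. The library sums were compared over 10663 genes by the quasi-likelihood test of edgeR, adjusted after Benjamini and Hochberg at 0.05, and fold changes are Mat KO minus WT on the log2 scale. None of the 38 members passed, where 0% of all tested genes passed lower in Mat KO and 0.075% higher, and the smallest adjusted p among members was 0.304. DESeq2 also called 0 of the 38, with a smallest adjusted p of 0.0618 and 0.167% of its tested genes called lower and 0.843% higher. At an unadjusted p under 0.05 there were 11 members lower, with 3.32% of all genes lower, and 0 higher, with 4.5% of all genes higher. This count of members at an unadjusted p under 0.05 depended on single libraries. The fold change was below 0 for 34 members, where 50.6% of all genes were below 0. It was below 0 for 35 without Mat KO 1, 30 without Mat KO 2, 35 without WT 1 and 27 without WT 2. The median over all genes was -0.11 without Mat KO 1, -0.099 without Mat KO 2 and 0.044 without WT 1. The median was -0.63 over the members and -0.010 over all genes. Both Mat KO libraries were below both WT libraries for 20 members, against 21.3% of all genes, and above them for Cdc45 and Rrm2 alone, against 17.8%.

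In unmarked cells the differences were wider. Members were below 0 in 35 of 38 cases, with 51.2% of all genes below 0, and the median was -1.15 beside -0.019 for all 10067 genes tested. Again none passed edgeR's test, where 0.00993% of all genes passed lower and 0.0397% higher, and the smallest adjusted p was 0.168. At an unadjusted p under 0.05 there were 18 members lower (3.85% of all genes) and 0 higher (3.8%). That count of members also depended on single libraries. Without WT 2, 27 members were below 0 and their median was -0.67. Both Mat KO libraries lay below both WT libraries for 25 members (22.2% of all genes) and above them for 0 (15.9%). The summed CPM of the members, scaled to the UMIs of each library (CPM), was 1306 and 1619 for Mat KO against 2257 and 3790 for WT. Without carrying cells the difference was small, with 14 of 28 tested members below 0 (51.2% of all genes) and a median of -0.017. Cells too shallow for thinning, which were not classed, stayed in that set. There edgeR called 0 of the 28, with 0 and 0.0323% of all genes passing lower and higher and a smallest adjusted p of 0.924. None had an unadjusted p under 0.05 (2.34% of all genes lower and 3.06% higher). In that set 4 members lay lower and 3 higher without overlap, against 18.9% and 17.2% of all genes. Leaving out carrying cells removes cells by these same members, so it describes where the difference sat and is no independent test.

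**Figure D5:**
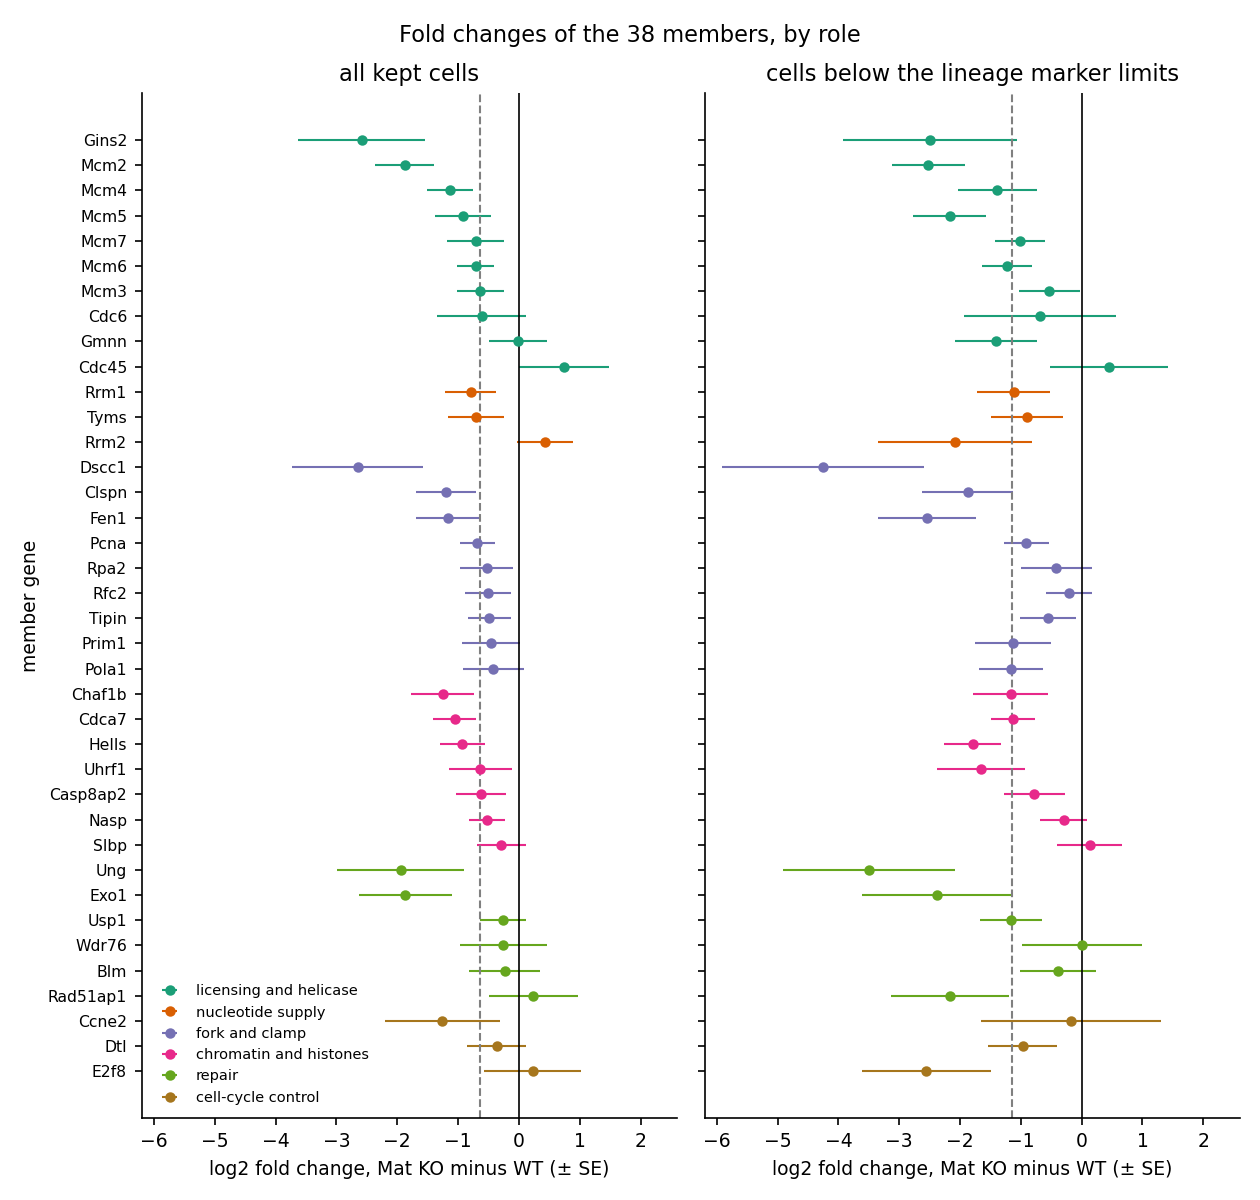
Log2 fold change, Mat KO minus WT, of each member (x axis, with bars of 1 standard error and a dashed line at the members' median) in all kept cells and in cells below the lineage marker limits, by role. Of the 38, 34 lie below 0 in all kept cells and 35 in the second set, and none passed edgeR's test in either.

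The licensing and helicase genes held the member with the smallest p. As a group they reached a summed 677 and 569 CPM in Mat KO against 914 and 1230 CPM in WT. Of the 10, 9 had a fold change below 0 (50.6% of all genes), with none past the test. Mcm2, a subunit of the ring (chr6:88883474-88898780, minus strand, GENCODE on GRCm38), stood at 35.3 and 15.8 CPM in Mat KO and 89.5 and 102 CPM in WT. Its log2 fold change was -1.88 ± 0.49 (SE, n = 2 libraries against 2; adjusted p = 0.304 by that edgeR test). It passed edgeR's test in other settings, with an adjusted p of 0.0191 with no gene filter and 0.0217 with the replicate number as a block. Those settings called more genes of all kinds, 149 of 14246 and 109 of 10663, against 8 of 10663 in the main fit. Same-numbered libraries showed no clear shared deviation. The log2 fold change of Mcm2 was -2.55 without Mat KO 1, -1.43 without Mat KO 2 and -1.98 without WT 1. In unmarked cells Mcm2 stood at 12.97 and 15.02 against 79.0 and 87.9 CPM, with a log2 fold change of -2.52 ± 0.60 (adjusted p = 0.168 by the same edgeR test). Within the cells that carried the programme Mcm2 stood at 77.1 and 34.5 against 171 and 152 CPM. Those cells are chosen by the members, Mcm2 included, and in Mat KO 1 all belong to marked lineages. In cells that did not carry the programme the libraries overlapped for Mcm2, at 12.4 and 9.52 against 49.1 and 12.2 CPM.

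The other subunits of the ring had the same sign with less distance between libraries. Mcm4 stood at 62.1 and 48.6 CPM in Mat KO and 104 and 144 CPM in WT (log2 fold change -1.13 ± 0.38). Mcm6 stood at 112 and 165 against 227 and 236 CPM (-0.71 ± 0.31). Mcm5 stood at 96.3 and 35.1 against 106 and 147 CPM (-0.92 ± 0.46). These 3 genes did not overlap between genotypes, although Mat KO 1 and WT 1 were close for Mcm5. In Mat KO 1, 88.0% of the Mcm5 UMIs came from marked lineages, and in unmarked cells Mcm5 stood at 21.95 and 15.8 against 57.1 and 117 CPM. Mcm3, at 76.8 and 130 against 123 and 206 CPM, overlapped (-0.64 ± 0.38). So did Mcm7, at 178 and 51.5 against 170 and 212 CPM (-0.71 ± 0.47), a value that was -0.091 without Mat KO 2 and -1.85 without Mat KO 1. Adjusted p for these 5 ran from 0.522 to 0.761 by edgeR's quasi-likelihood test. Mcm7 shares exon bases with Ap4m1 and Cops6 on the opposite strand and hosts microRNA genes, and since the sources used here do not give the strand counted, its reads cannot be assigned to it alone.

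Cdc45, the helicase partner that joins the ring at firing, was an exception. It stood at 29.995 and 28.8 CPM in Mat KO and 9.11 and 26.7 CPM in WT, with a log2 fold change of 0.74 ± 0.74 (adjusted p = 0.862 by edgeR). The Mat KO libraries were close to WT 2, and WT 1 was low. In unmarked cells the libraries overlapped, at 16.0 and 25.5 against 6.43 and 25.2 CPM. Exons of Cdc45 overlap Ufd1 on the opposite strand. Gins2, of the GINS complex, rested on 12 and 2 UMIs against 60 and 89, and Cdc6 on 22 and 35 against 81 and 77. Gmnn overlapped over all cells, at 68.9 and 73.5 against 41.5 and 106 CPM, but not in unmarked cells, at 19.96 and 23.3 against 31.0 and 88.7 CPM.

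The nucleotide supply genes did not separate the genotypes as a group, with summed values of 176 and 214 CPM in Mat KO and 191 and 381 CPM in WT. Rrm1, the large subunit of ribonucleotide reductase, stood at 77.9 and 97.2 against 93.3 and 217 CPM (-0.79 ± 0.42). Tyms, thymidylate synthase, stood at 48.4 and 60.5 against 57.5 and 123 CPM (-0.70 ± 0.46). In both genes WT 2 was high and the other 3 libraries lay close together. Rrm2, the small subunit, whose level limits the enzyme in S phase, stood at 49.99 and 56.5 against 40.5 and 40.6 CPM (0.43 ± 0.46). Adjusted p was 0.701 for Rrm1, 0.760 for Tyms and 0.884 for Rrm2 by edgeR's quasi-likelihood test. Marked lineages held 96.8%, 93.0%, 79.8% and 46.2% of the Rrm2 UMIs. In unmarked cells the Rrm2 order was the opposite, at 2.99 and 5.26 CPM in Mat KO and 9.83 and 27.1 CPM in WT (log2 fold change -2.08 ± 1.27), values that rest on 3, 7, 26 and 71 UMIs. The Tyms pseudogene in the table, Tyms-ps, had 0 UMIs in every library.

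All 9 fork genes had a fold change below 0 (50.6% of all genes), and 6 of them lay lower without overlap (21.3% of all genes). They reached a summed 590 and 521 CPM in Mat KO against 743 and 1046 CPM in WT. Pcna, the sliding clamp, stood at 135 and 137 against 205 and 242 CPM, with log2 fold change -0.68 ± 0.29 (adjusted p = 0.599 by edgeR). Its Mat KO libraries were nearly equal and below both WT libraries. In cells that did not carry the programme Pcna stood at 82.0 and 95.96 against 120 and 101 CPM. Rfc2, a subunit of the complex that loads the clamp, stood at 82.1 and 118 against 105 and 185 CPM and overlapped (-0.50 ± 0.38, adjusted p = 0.800 by edgeR), and its log2 fold change was -0.041 without WT 2 and -0.86 without WT 1. Clspn stood at 55.8 and 22.6 against 77.6 and 105 CPM, and Fen1, the nuclease of lagging strand fragments, at 34.7 and 18.7 against 46.8 and 75.0 CPM. Fen1 came largely from marked lineages in Mat KO 1, at 93.9% of its UMIs there, and in unmarked cells it stood at 3.99 and 13.5 against 41.6 and 68.1 CPM. Dscc1 had 10 and 2 UMIs in Mat KO against 65 and 69 in WT, so its log2 fold change of -2.65 ± 1.08 rests on few molecules. The polymerase alpha gene Pola1 overlapped over all cells, at 114 and 38.4 against 73.5 and 133 CPM, and did not in unmarked cells, at 46.9 and 35.3 against 64.7 and 124 CPM. Rpa2, Prim1 and Tipin had fold changes from -0.53 to -0.46. Pcna has pseudogene copies and Fen1 and Rfc2 overlap other genes on the opposite strand, so their reads may be shared.

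The 7 chromatin genes were all below 0 (50.6% of all genes), and 5 lay lower without overlap (21.3% of all genes). They reached a summed 636 and 482 CPM in Mat KO against 785 and 1108 CPM in WT. Cdca7, which recruits the remodeller Hells to chromatin, stood at 124 and 69.5 against 178 and 231 CPM (log2 fold change -1.06 ± 0.35, adjusted p = 0.514 by edgeR). Hells stood at 91.0 and 68.4 against 115 and 195 CPM (-0.93 ± 0.37). In unmarked cells both partners were again lower in Mat KO without overlap, Cdca7 at 98.8 and 76.6 against 178 and 217 CPM and Hells at 30.9 and 48.1 against 107 and 178 CPM. Chaf1b, of the histone deposition complex CAF-1, stood at 17.9 and 36.2 against 72.3 and 59.9 CPM. It was less tied to carrying cells than most members, with 51.2% of its UMIs in them. Nasp, a histone chaperone, stood at 188 and 129 against 217 and 248 CPM (-0.52 ± 0.29, adjusted p = 0.723 by edgeR). In unmarked cells it overlapped, at 160 and 95.4 against 111 and 210 CPM. Casp8ap2, needed for histone gene expression, lay lower in Mat KO without overlap (-0.63 ± 0.41). Slbp, which binds histone messenger RNAs, and Uhrf1 overlapped.

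The repair and control genes varied most between the Mat KO libraries, with Mat KO 1 high for several. The repair genes reached a summed 344 and 178 CPM in Mat KO against 272 and 403 CPM in WT. Rad51ap1, a DNA repair gene, stood at 81.0 and 12.4 against 26.4 and 54.1 CPM (log2 fold change 0.24 ± 0.73). E2f8, a repressor of E2F targets, stood at 68.4 and 9.05 against 21.4 and 45.8 CPM (0.23 ± 0.80). In Mat KO 1, 98.1% of the Rad51ap1 UMIs and 96.2% of the E2f8 UMIs lay in marked lineages, and 1 cell held 51.9% and 47.7% of them. In unmarked cells both genes were lower in Mat KO without overlap. Rad51ap1 stood there at 2.99 and 10.5 against 24.6 and 40.5 CPM (-2.17 ± 0.97) and E2f8 at 4.99 and 4.51 against 13.99 and 44.0 CPM (-2.55 ± 1.07).

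Usp1, the repair gene with the highest mean CPM, stood at 142 and 121 against 105 and 216 CPM (-0.26 ± 0.37), and WT 1 was the lowest library. Blm, a helicase that dissolves recombination intermediates, stood at 72.6 and 22.1 against 72.9 and 40.6 CPM (-0.23 ± 0.58). Dtl, which directs the destruction of licensing factors in S phase, stood at 70.0 and 35.6 against 50.6 and 88.2 CPM (-0.37 ± 0.49). These 3 overlapped, and the sign of each turned when 1 library was left out. Usp1 gave 0.35 without WT 2, Blm 0.36 without Mat KO 2 and 0.24 without WT 1, and Dtl 0.021 without Mat KO 2 and 0.083 without WT 2. Adjusted p of these 5 repair and control genes ran from 0.912 to 0.976 by edgeR's quasi-likelihood test. Exo1, a nuclease of mismatch repair, rested on 17 and 13 UMIs against 101 and 95, and Ung, which removes uracil from DNA, on 21 and 2 against 56 and 99. Ccne2, the cyclin partner of Cdk2, rested on 10 and 16 against 65 and 48. Wdr76 overlapped, at 28.4 and 14.1 against 18.8 and 32.9 CPM.

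Within the carrying cells, which the members themselves define, members reached a summed 5054 and 4960 CPM in Mat KO against 6431 and 6087 CPM in WT. Licensing genes summed to 1463 and 1475 against 2043 and 1772 CPM, fork genes to 1020 and 1122 against 1603 and 1432 CPM, and chromatin genes to 1020 and 1195 against 1488 and 1557 CPM. Nucleotide, repair and control genes overlapped in these cells. The Mat KO 1 values here came wholly from marked lineages, and the part that lineage has in these levels was not tested.

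Other genes of DNA replication were taken from a list of 75, of which 73 were tested. None passed edgeR's test, with 12 lower (3.32% of all genes) and 1 higher (4.5%) at an unadjusted p under 0.05, and 53 were below 0 (50.6%) with a median of -0.49. Without overlap 32 lay lower (21.3%) and 1 higher (17.8%). Dut, which keeps uracil out of the nucleotide pool, stood at 121 and 113 against 223 and 339 CPM (log2 fold change -1.23 ± 0.30, adjusted p = 0.274 by edgeR). Lig1, which seals lagging strand fragments, stood at 116 and 93.9 against 187 and 426 CPM (-1.52 ± 0.38, adjusted p = 0.289 by edgeR). In the other direction E2f2 stood at 68.9 and 66.2 against 38.3 and 26.4 CPM (1.09 ± 0.46, adjusted p = 0.604) and Orc5, of the origin recognition complex, at 22.1 and 44.7 against 15.4 and 23.7 CPM (0.81 ± 0.68, adjusted p = 0.830), both by edgeR. E2f2 was the only listed gene higher in both Mat KO libraries at that unadjusted p. In unmarked cells E2f2 had a log2 fold change of -0.35, of the opposite sign. The 54 tested genes of G2 and mitosis differed from the members over all cells, with 16 below 0 (50.6% of all genes) and a median of 0.26. In unmarked cells 41 of 51 were below 0 (51.2% of all genes), with a median of -0.61.

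Cells were also grouped by Xist and by Y-linked transcripts, and both kinds of cell occurred in every library. In cells with Xist, members took 0.259% and 0.158% of Mat KO UMIs and 0.311% and 0.467% of WT UMIs. In cells with Y-linked transcripts and no Xist they took 0.252% and 0.336% for Mat KO against 0.277% and 0.256% for WT, so the libraries overlapped there. The median log2 fold change of the members was -0.94 in the first set and 0.043 in the second, where 34 members were tested. Many cells had UMIs of both kinds, 12, 23, 20 and 21 of them. The sex of single cells could therefore not be read, and the sets do not compare female with male cells. The difference between the sets was not tested.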

How the data were processed

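The authors deposited UMI counts for each gene in each barcode, not normalized, in 1 table per library. Per the submitters' processing notes, TopHat2 2.0.12, HTSeq and the mm10 build were used, with no role given to each. How UMIs were collapsed, which strand was counted and how reads of gene copies were assigned was not given in the sources used here. The 95 spike-in and marker sequences stayed out of library sizes and tests. No doublet caller was run, since cells were picked individually. Barcodes under 1000 detected genes were dropped. Per the file headers, the 4 libraries shared a flow cell and a lane.

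Counts were added over the kept cells of each library, giving 4 samples for edgeR 4.0.16 (R 4.3.3), using TMM factors, filterByExpr, genotype as the only term and a quasi-likelihood test with Benjamini-Hochberg adjustment over all tested genes at 0.05. Standard errors follow from the fold change and its F statistic. Scripts were tested on simulated data. Cells were thinned by drawing 8800 UMIs without replacement. Intervals are exact Clopper-Pearson at 95%, and a count of 0 allows 3 counts. UMIs can over-count molecules, so intervals cover counting error only. Gene positions are from GENCODE vM21, and all 38 members matched. Exons of 9 members overlap another gene on the opposite strand.

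The members, the gene lists and the tests were chosen with earlier results of these data known. Members given with their fold change under every alternative, 19 in all, were the 2 of highest mean CPM in each role, Mcm2 to Mcm7, any past the test and the 3 of smallest p in each direction. Values by library of further members were chosen after they were seen. Of the other replication genes, those past the test and the 2 of smallest p in each direction were named, and among all genes that are no members the 10 whose UMIs followed the member count most closely. Alternatives covered the gene filter, the normalization, DESeq2 1.42.0, limma 3.58.1 on log2(CPM + 1), a replicate block, each library left out, each gene's leading cell left out, the depth, the cells used and the definition of a carrying cell. Those on the lineage limit and on Xist and Y-linked transcripts were added after seeing the data. Marker lists of T and NK cells, mast cells, megakaryocytes, erythroid cells and stroma were also summed, and each stayed at or below 0.0708% of UMIs in every library.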

Additional observations from a re-analysis of the deposited data

How the results depend on the processing

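Same-numbered libraries showed no clear shared deviation, since their deviations from the group means correlated at -0.0169. This does not tell whether they were prepared together. Members past the test numbered 0, where 8 of 10663 genes passed in all. Without the gene filter 1 member (Mcm2) passed, where 149 of 14246 genes did. With the replicate block 1 member (Mcm2) passed, where 109 of 10663 genes did. Both settings thus called more genes of all kinds. In fits with a library left out, the lone library of a genotype is assumed to vary like the others. The median log2 fold change of the members was -0.63, and -1.15 in unmarked cells, -1.13 with the granulocyte and monocyte limit at 0.5%, -0.017 without carrying cells, -0.94 in cells with Xist and 0.043, of the opposite sign, in cells with Y-linked transcripts. With each library left out it ran from -0.87 to -0.38, and in unmarked cells from -1.67 to -0.67. The summed level, as log2 of Mat KO over WT, was -0.67, and -1.05 in unmarked cells and -0.14 without carrying cells. With each library left out it ran from -0.91 to -0.39. The share of carrying cells differed by -20.3 points, by -36.6 without thinning and -36.8 at 15000 UMIs. With each library left out it differed by -32.3 to -8.25 points. With at least 14 members required the shares were 15.4%, 14.6%, 19.6% and 40.9%. With members at 0.5% of UMIs or more they were 6.82%, 8.33%, 12.5% and 31.25%. With at least 7 members they were 51.3%, 26.8%, 52.2% and 75%, and Mat KO 1 lay close to WT 1. Alternatives for single genes were run for the 19 members chosen by the rule and not for the others. There, 271 of 298 alternatives kept the sign and the side of the threshold, 4 passed it and 23 changed sign. Rad51ap1 changed sign with the block (-0.14), without Mat KO 1 (-1.65) or WT 1 (-0.20), in unmarked cells (-2.17), without its leading cells (-0.16) and in limma (-0.76). E2f8 did so in the same settings (-0.20, -1.85, -0.23, -2.55, -0.18 and -1.29), and Rrm2 in unmarked cells (-2.08). Without carrying cells Mcm3 (0.25), Rfc2 (0.028), Nasp (0.74), Blm (0.48) and Dtl (0.066) changed sign. Blm also did so without Mat KO 2 (0.36) or WT 1 (0.24), Dtl without Mat KO 2 (0.021) or WT 2 (0.083), and Usp1 without WT 2 (0.35). With each library left out, the named members of uncertain sign ran from -1.65 to 1.02 for Rad51ap1, -1.85 to 1.03 for E2f8, -1.32 to 0.36 for Blm, -0.92 to 0.083 for Dtl and -0.70 to 0.35 for Usp1. The causes were not tested. With 2 libraries a genotype, and members at a few UMIs, the depth limits Dscc1, Gins2, Ung, Exo1, Cdc6 and Ccne2 most.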

Other observations

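The genes whose UMIs followed the number of members per cell most closely were sought among all genes that are no members. Within each library the Spearman correlation across thinned cells was taken for 2854 genes detected in at least 20% of cells of each library, and averaged over the 4 libraries. It is a description over 170 cells, with a median of 0.0453 over all genes. The 10 highest were Ptma (0.567), Cks1b (0.566), Mki67 (0.511), Pmf1 (0.486), Hmgb1 (0.478), Top2a (0.473), Snrpd1 (0.473), Stmn1 (0.467), Smc4 (0.456) and Tuba1b (0.455). Top2a is also on the list of other replication genes. Mki67 and Top2a mark proliferating cells, Smc4 is a condensin subunit and Ptma is an abundant nuclear protein of growing cells. Among the 30 highest, 5 were on the list of other replication genes and 6 on that of G2 and mitosis. At the other end stood Malat1 (-0.461), B2m (-0.413), Ifitm1 (-0.401), Pnrc1 (-0.396) and Hlf (-0.365), of which Hlf and Ifitm1 are on the list of long-term HSC genes. These 5 were taken as the lowest after their values were seen.

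Ptma did not follow the members between genotypes, with 1751 and 1636 CPM in Mat KO and 1702 and 1715 CPM in WT (log2 fold change 0.018). Cks1b, a subunit of cyclin-dependent kinases, stood at 162 and 119 against 192 and 227 CPM (-0.55, adjusted p = 0.716 by edgeR's quasi-likelihood test).

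Carrying cells were spread over the barcode numbers. Of the 48 numbers that held cells, 15 had a carrying cell in no library, 19 in 1, 9 in 2, 5 in 3 and 0 in all 4.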
